A study of Mus musculus with 12 samples.

Results

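The zinc transporters and metallothioneins described here are the genes of the Slc30a and Slc39a families together with Mt1, Mt2, Mt3, Mt4, Mtf1, Mtf2 and Mtl5. They were chosen by gene symbol alone, from transcripts that matched a known transcript, lay within one, shared a splice junction with one or overlapped one. The rule found 31 of the 24516 genes with a symbol and 104 of the 71967 transcripts in the table. The members were 10 Slc30a genes with 27 transcripts, 14 Slc39a genes with 50 transcripts, 4 metallothioneins with 6 transcripts, and Mtf1, Mtf2 and Mtl5 with 21 transcripts. Of the 104 transcripts, 54 carried a RefSeq identifier and 50 had been assembled from the reads. The samples were whole testes of untreated wild-type C57BL/6 males, 3 mice at each of 3, 6, 12 and 18 months of age (3M, 6M, 12M and 18M), and all 12 libraries came from total RNA freed of ribosomal RNA. Litters are not known, and no mouse was sampled at more than 1 age. The estimated read totals ranged from 50924104 to 71803379 per library.

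Zinc is held at a low free level in the cytosol. Slc30a proteins (ZnT) carry zinc out of the cytosol, across the plasma membrane or into organelles, and Slc39a proteins (ZIP) carry it the other way. Metallothioneins are small cysteine-rich proteins that bind zinc and copper, and the zinc-sensing transcription factor MTF1 switches on Mt1, Mt2 and the exporter gene Slc30a1 through short metal response elements in their promoters. The testis is rich in zinc, and germ cells need it for meiosis and for packing sperm chromatin. Mtf2 and Mtl5 have names close to those of the metal genes, but Mtf2 encodes a partner of Polycomb repressive complex 2, and Mtl5 encodes tesmin, a testis protein of the MuvB type that is needed in spermatocytes.

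The libraries held the cell types of the testis. The 6 spermatid markers summed to 11464 to 17133 reads scaled by library size (CPM, as edgeR gives it) and the 6 Sertoli markers to 794.9 to 1062 CPM, while 4 of 5 epididymis markers were under 1 CPM and 2 of them were at 0. The remaining epididymis marker, Defb19, had a mean of 77.4 CPM at 3M and 79.3 CPM at 18M. In bulk tissue, fewer cells of a type and less RNA per cell cannot be told apart. The 6 Leydig markers summed to 868 to 1042 CPM at 3M, 811 to 1312 CPM in the 6M mice, 622 to 695 in the 12M mice and 551 to 759 in the 18M mice. Of them, 5 of 6 were lower at 18M than at 3M, with a median log2 fold change of -0.88, and 2 (Cyp11a1 and Cyp17a1) were called as falling with age. No other cell type list had a gene called in the slope on age or between 3M and 18M, and the median log2 fold changes of 18M over 3M were 0.13 for spermatids, -0.03 for spermatocytes, -0.30 for spermatogonia, 0.02 for Sertoli cells, -0.18 for peritubular myoid cells, -0.08 for macrophages, -0.29 for endothelium, -0.43 for adipocytes, -0.48 for blood and 0.04 for the 1 epididymis gene tested.

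Levels are given first as FPKM summed over the transcripts of a gene, which is per length and can be compared between genes. The testis expressed most of both transporter families. Of the 31 members, 26 had a mean of 1 FPKM or more over the 12 libraries, 11 had 10 FPKM or more, and 4 were under 0.1 FPKM. Mt1 and Mt2 were the most abundant members, followed by Mtl5 and Slc30a3. Ranked by mean level, 23 of the 30 neighbouring pairs had ranges that overlapped over the libraries. Neighbours were apart only at the other 7 steps, which are those between Mt1 and Mt2, Mt2 and Mtl5, Slc30a3 and Slc39a6, Slc39a8 and Slc39a3, Slc30a1 and Slc30a5, Slc39a5 and Slc30a7, and Slc30a7 and Slc39a2. Genes that are not neighbours can still overlap across such a step. Mtf1, ranked below Slc30a5, reached 7.30 FPKM in 18M-1, while Slc30a1 was at 6.44 FPKM in 3M-2.

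**Figure D1:**
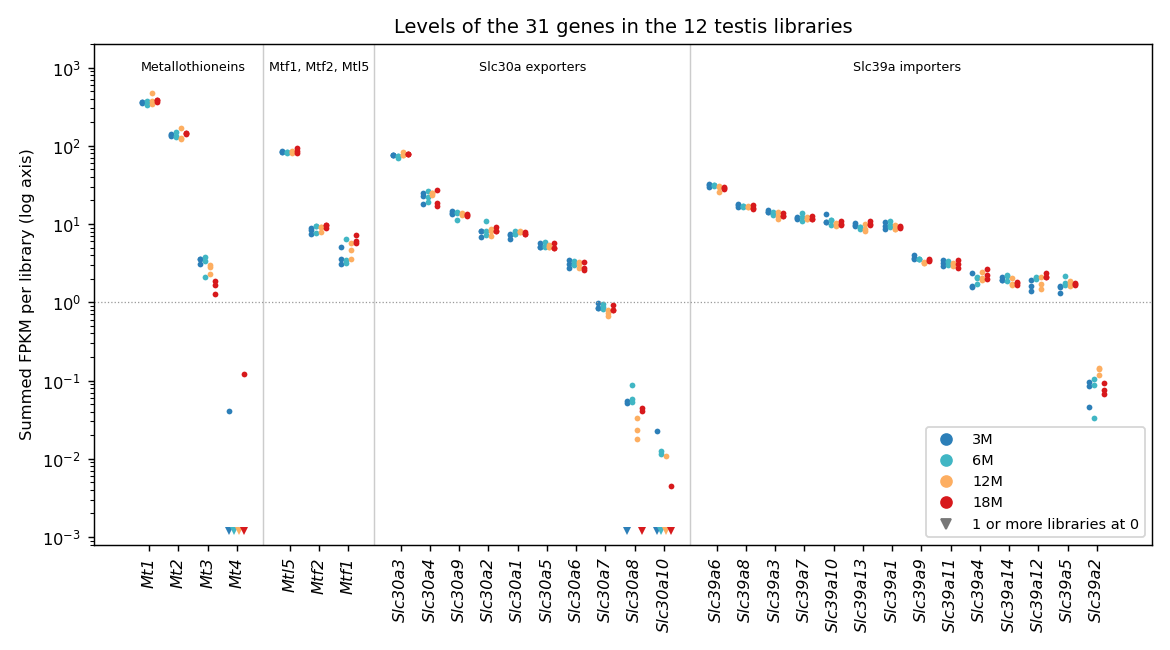
Summed FPKM of each of the 31 genes (log axis) in the 12 libraries, grouped by family and ordered by mean level, 1 point per library and coloured by age; triangles at the lower edge mark ages with at least 1 library at 0, and the dotted line is 1 FPKM. Mt1 lies between 328 and 469 FPKM in every library, while Mt4, Slc30a8, Slc30a10 and Slc39a2 lie near 0, and the 4 ages of a gene mostly lie on top of each other apart from Mt3 and Mtf1.

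The metallothioneins lay close together on chromosome 8 and differed in level by several orders of magnitude. Mt1 (chr8:94179089-94180327, mm10) was the highest member, at 357, 360 and 367 FPKM at 3M, 328, 346 and 370 at 6M, 371, 343 and 469 at 12M, and 359, 383 and 389 at 18M. Its ages overlapped, and library 12M-3 stood above all the others. Mt2 (chr8:94172008-94173567) was at 137 ± 3.47 FPKM (SD, n = 3) at 3M and 143 ± 3.38 (SD, n = 3) at 18M, and 12M-3 was again the highest library, at 167 FPKM. Both encode the metallothioneins found in nearly all tissues. Mt3 (chr8:94152607-94154148), best known from brain, was lower by far, at 3.38 ± 0.278 FPKM (SD, n = 3) at 3M and 1.60 ± 0.307 (SD, n = 3) at 18M. Mt4 (chr8:94137204-94139031), the form of stratified epithelia, had 1 read in 3M-1, 3 reads in 18M-1 and none in the other 10 libraries, so that its expression was not detectable at this depth.

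The promoters of these genes are shown because metal response elements lie in them. RefSeq promoters (GRCm38.p6, the mm10 assembly), 250 bases before to 50 bases after the start, were at hand for 27 of the 31 genes, 34 promoters in all. The letters TGCACNC and TGCGCNC, searched on either strand, stand for the core of the element. Of the 34 promoters, 18 (52.9%) held at least 1 match, against 25.7% of all 32851 promoters of the same length. Matches are in capitals in the sequences, which are written on the gene's own strand, and positions are counted from the RefSeq start base as 0. Letters outside this window were not searched, so counts and positions hold for this start and window alone.

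Mt1 held 3 matches, Mt2 held 4, and Mt3 and Mt4 held 1 each. Slc30a10, which had 0 to 8 reads per library, also held 3 matches, as did Slc30a4. Of all promoters, 1.97% held 3 or more matches and 0.518% held 4 or more. In Mt1 they began 23 bases before the start and 2 and 20 bases after it (chr8:94178839-94179138, plus strand). In Mt2 they began 223, 128 and 50 bases before the start and 4 bases after it (chr8:94172368-94172667, plus strand). The single match of Mt3 began 27 bases after the start (chr8:94152357-94152656, plus strand).
Mt1 promoter: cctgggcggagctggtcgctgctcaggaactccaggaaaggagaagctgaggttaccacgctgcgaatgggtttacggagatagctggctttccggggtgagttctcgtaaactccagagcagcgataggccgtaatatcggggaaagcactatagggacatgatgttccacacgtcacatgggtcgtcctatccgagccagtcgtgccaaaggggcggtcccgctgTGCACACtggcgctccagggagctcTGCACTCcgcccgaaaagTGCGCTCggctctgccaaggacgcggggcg
Mt2 promoter: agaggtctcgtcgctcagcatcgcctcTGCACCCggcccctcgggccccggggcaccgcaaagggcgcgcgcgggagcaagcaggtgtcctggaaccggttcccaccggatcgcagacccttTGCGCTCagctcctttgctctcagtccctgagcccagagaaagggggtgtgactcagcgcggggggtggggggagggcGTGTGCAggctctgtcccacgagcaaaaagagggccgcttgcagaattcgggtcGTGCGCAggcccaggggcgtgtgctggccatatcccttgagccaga
Mt3 promoter: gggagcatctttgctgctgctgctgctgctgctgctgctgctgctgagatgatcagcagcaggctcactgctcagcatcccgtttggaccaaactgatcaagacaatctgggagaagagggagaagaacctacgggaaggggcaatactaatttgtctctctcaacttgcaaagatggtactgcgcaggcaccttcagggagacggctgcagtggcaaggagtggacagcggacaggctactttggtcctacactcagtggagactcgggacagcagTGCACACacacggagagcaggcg

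Among the Slc30a exporters, Slc30a3 was the highest. It encodes ZnT3, which loads zinc into synaptic vesicles in brain. Its level was 75.6, 76.7 and 76.7 FPKM at 3M and 77.9, 78.7 and 78.9 FPKM at 18M, and it made up 55.8% of the family's summed FPKM. Slc30a4, which fills vesicles with zinc and is mutated in lethal milk mice, followed at 22.0 ± 3.46 FPKM (SD, n = 3) at 3M and 20.9 ± 5.40 (SD, n = 3) at 18M, and Slc30a9, a mitochondrial zinc transporter, at 14.0 ± 0.5997 and 13.1 ± 0.351 (SD, n = 3 each). Slc30a4 varied widely between mice of an age, from 17.2 to 27.1 FPKM at 18M alone. Slc30a2, Slc30a1, Slc30a5 and Slc30a6 had means of 8.21, 7.59, 5.26 and 3.04 FPKM over the 12 libraries; Slc30a1 is the exporter of the plasma membrane, and the products of Slc30a5 and Slc30a6 work as a pair in the secretory pathway. Slc30a7, of the Golgi, was at 0.836 FPKM. Slc30a8, the exporter of insulin granules, had 0 to 10 reads per library, and Slc30a10, which exports manganese, had 0 to 8.

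The Slc39a importers were led by Slc39a6, at 31.2 ± 1.28 FPKM (SD, n = 3) at 3M and 28.9 ± 0.565 (SD, n = 3) at 18M. Its product pairs with that of Slc39a10, which was at 11.6 ± 1.53 and 10.2 ± 0.487 FPKM (SD, n = 3 each). Slc39a8, which also carries manganese and cadmium, was at 17.4 ± 0.596 and 16.3 ± 0.863 FPKM, and Slc39a3, an importer of the plasma membrane, at 14.6 ± 0.537 and 13.0 ± 0.727 FPKM (SD, n = 3 each). Slc39a7, which releases zinc from the endoplasmic reticulum, Slc39a13 and Slc39a1 had means of 12.0, 9.50 and 9.44 FPKM over the 12 libraries. Slc39a9 and Slc39a11 lay at 3.502 and 3.13 FPKM, and Slc39a4 (the intestinal importer), Slc39a14, Slc39a12 and Slc39a5 between 1.71 and 2.06 FPKM. Slc39a2 had 5 to 22 reads per library. The summed level was 120.0 ± 1.48 FPKM (SD, n = 3) at 3M and 114 ± 1.09 (SD, n = 3) at 18M for Slc39a, and 136 ± 2.46 and 138 ± 4.36 (SD, n = 3 each) for Slc30a.

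To ask whether the levels changed with age, the estimated reads of each gene were tested with edgeR across all genes and loci. In the slope on age over the 12 libraries, 28 members were tested and 0 were called at an adjusted p of 0.05 or less, where 0.167% of the 25093 genes tested were called. Between 3M and 18M, 0 of the 28 were called (0.0647% of all genes), as between 3M and 6M (0.0729%), 6M and 12M (0.0404%) and 12M and 18M (0.0202%). Mt4, Slc30a8 and Slc30a10 did not pass the filter on low counts. In simulated data edgeR recovered 29% of 2-fold gene changes between 3M and 18M, so members not called cannot be taken as unchanged. At an unadjusted p of 0.05 or less there were 7 members in the slope, 3 higher and 4 lower with age, against 15.5% of all genes. There were 6 members between 3M and 18M (12.0% of all genes), 0 between 3M and 6M (3.94%), 0 between 6M and 12M (7.50%) and 3 between 12M and 18M (3.57%). DESeq2 called 1 member in the slope (1.88% of all genes) and 2 between 3M and 18M (1.02%), and 0 in the other 3 comparisons.

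Most members differed little between 3M and 18M. Of the 28 tested, 24 differed by less than 1.2-fold between 3M and 18M, with a median log2 fold change of -0.03 against 0.01 over all genes. Among the Slc30a genes, 2 were higher and 6 lower at 18M, with log2 fold changes from -0.14 (Slc30a2) to 0.11 (Slc30a1). Among the Slc39a genes, 5 were higher and 9 lower, from -0.19 (Slc39a14) to 0.41 (Slc39a12). The CPM ranges of 3M and 18M did not overlap in 10 of the 28 members, or 35.7%, against 19.6% of the 24744 genes tested. Mt2, Mtf1, Mtf2 and Slc39a12 lay higher at 18M, and Mt3, Slc30a9, Slc39a3, Slc39a6, Slc39a9 and Slc39a14 lay lower.

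**Figure D2:**
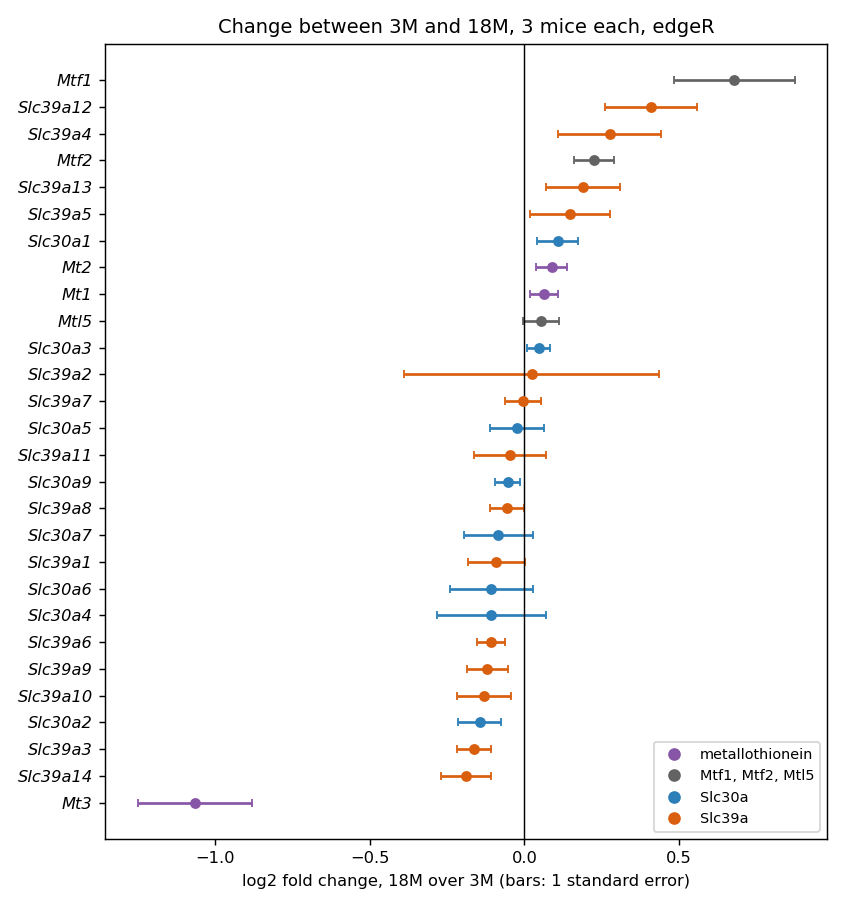
Log2 fold change of 18M over 3M (horizontal axis) for the 28 members tested, each point 1 gene with a bar of 1 standard error on each side, from the edgeR fit to 3 mice per age and coloured by family. Mt3 stands alone at -1.07 and Mtf1 at 0.68, and 24 of the 28 genes lie within 1.2-fold.

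Mt3 had the largest difference between 3M and 18M. It had 107, 116 and 102 reads at 3M, 62, 100 and 124 at 6M, 102, 90 and 84 at 12M, and 42, 58 and 68 at 18M. As CPM these were 2.04, 2.04 and 1.77 at 3M and 0.741, 1.10 and 0.949 at 18M, so that every 18M library lay below every other library, and 6M-1, at 1.22 CPM, was the lowest of the younger mice. The log2 fold change was -1.07 (SE 0.184), which did not pass the edgeR threshold (adjusted p = 0.264), and the slope was -0.07 per month (SE 0.0148, adjusted p = 0.0995). DESeq2 called both (adjusted p = 0.0197 and 0.00396). Over the alternatives, the adjusted p of the difference between 3M and 18M ran from 0.0197 to 0.651, and the log2 fold change stayed between -1.20 and -0.75. The difference was seen in each of the 3 exons, whose mean coverage went from 8.49 to 4.04 in the first, 48.8 to 20.6 in the second and 24.2 to 12.2 in the last. The sum of the Leydig markers given above was lower at 12M and 18M. Mt3 at 12M, at 1.73, 1.68 and 1.32 CPM, lay within its range at 6M. All tested markers of spermatogonia (5), peritubular myoid cells (4) and endothelium (3) were also lower at 18M than at 3M, and all 6 of spermatids were higher. The part of any cell type in the level of Mt3 was not tested.

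Mt1 and Mt2 differed less. Mt1 was 209 ± 3.798 CPM (SD, n = 3) at 3M and 219 ± 10.1 (SD, n = 3) at 18M, a log2 fold change of 0.06 (SE 0.0459, adjusted p = 0.607). Mt2 was 84.0 ± 1.59 and 89.3 ± 4.37 CPM (SD, n = 3 each), a log2 fold change of 0.09 (SE 0.0493, adjusted p = 0.503). At 12M the spread was widest, with 216, 202 and 266 CPM for Mt1 and 77.5, 76.5 and 106.7 CPM for Mt2, the highest value being that of 12M-3 for both. Slc30a1, the third target of MTF1 named above, was 44.7 ± 1.148 CPM at 3M and 48.1 ± 3.66 at 18M (SD, n = 3 each; log2 fold change 0.11, SE 0.0655, adjusted p = 0.534), and in 12M-3 it was at 45.2 CPM, below both other 12M libraries. Its promoter (chr1:191906531-191906830, plus strand) held 2 matches to the element letters, which begin 43 bases before and 30 bases after the start, and 7.11% of all promoters held 2 or more.
Slc30a1 promoter: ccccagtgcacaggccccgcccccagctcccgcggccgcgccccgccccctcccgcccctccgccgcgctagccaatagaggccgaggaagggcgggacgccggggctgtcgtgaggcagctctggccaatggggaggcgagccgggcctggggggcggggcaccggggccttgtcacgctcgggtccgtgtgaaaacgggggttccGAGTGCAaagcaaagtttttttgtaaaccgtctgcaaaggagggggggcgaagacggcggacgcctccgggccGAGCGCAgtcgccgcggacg

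**Figure D3:**
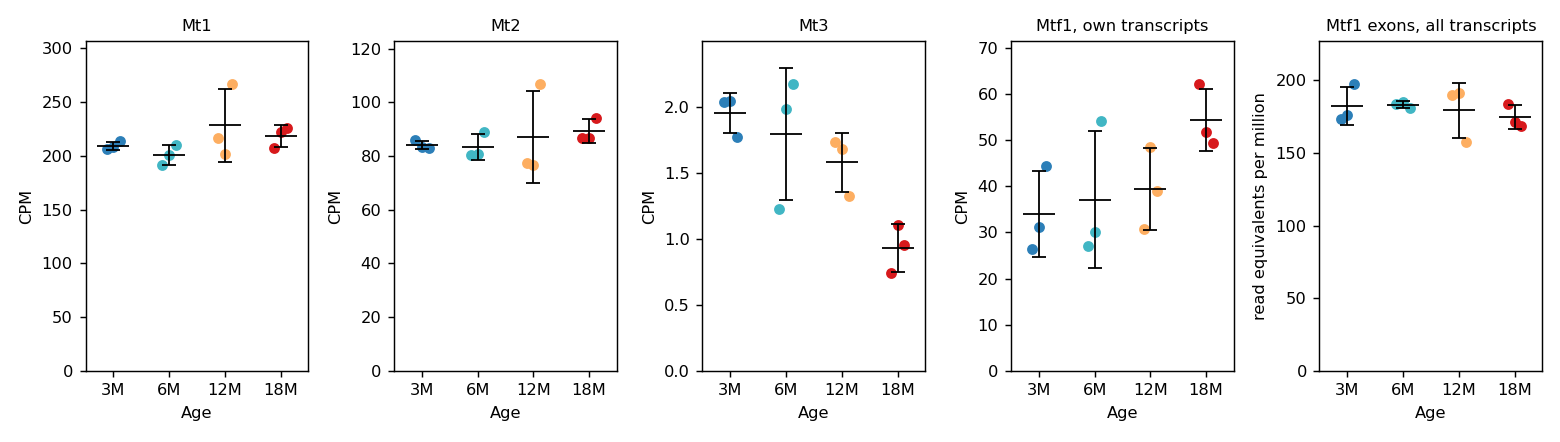
Values of each library (points, coloured by age) with the mean and SD of the 3 mice (black) at each age for Mt1, Mt2, Mt3 and Mtf1 in CPM, and, in the last panel, the coverage of the Mtf1 exons by all assembled transcripts on the CPM scale; all vertical axes start at 0. Mt3 is lowest in the 3 libraries of 18M, and the Mtf1 transcripts are higher at 18M while the total coverage of the Mtf1 exons is 182 at 3M and 174 at 18M.

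Mtf1 (chr4:124802549-124849800), the zinc sensor, was the member with the largest difference upward by its own transcripts. They held 26.4, 31.1 and 44.3 CPM at 3M, 27.1, 30.1 and 54.2 at 6M, 30.7, 48.5 and 38.9 at 12M, and 62.1, 51.7 and 49.4 at 18M. The log2 fold change of 18M over 3M was 0.68 (SE 0.195), which did not pass the edgeR threshold (adjusted p = 0.354) and was called by DESeq2 (adjusted p = 0.0127). However, the assembly also holds transcripts named for the neighbouring gene Inpp5b that run through the exons of Mtf1. Transcripts with another symbol, Inpp5b or 1110065P20Rik, took 77.1% of the coverage of the Mtf1 exons, 81.5% ± 3.66 at 3M and 68.9% ± 2.36 at 18M (SD, n = 3 each). Summed over all transcripts, the coverage of the Mtf1 exons was 173, 176 and 197 at 3M on the CPM scale (coverage over all bases, divided by the read length of 101) and 184, 171 and 169 at 18M, a log2 ratio of -0.06, and the ages overlapped (two-sided exact permutation test, p = 0.5, where the smallest p that 3 against 3 allows is 0.1). The total coverage of these exons was thus not higher at 18M. Most of it was given to transcripts of other symbols, so it cannot decide the level of Mtf1 itself. NM_008636, the RefSeq transcript of Mtf1, took 28.1% of the gene's own reads, and MSTRG.14466.10, assembled from the reads with a later start, took the rest.

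Other members shared exons with named neighbours, where reads without strand cannot be told apart. Transcripts of Creb3l4 took 57.9% of the coverage of the Slc39a1 exons, those of 1700034H15Rik took 20.1% of Slc30a1, those of Extl1 took 11.3% of Slc30a2, and those of 4933401H06Rik took 5.78% of Slc39a8. Exons here are those of all transcripts of a member, assembled ones included. Those of Slc39a1 begin at chr3:90238080, upstream of its RefSeq start at chr3:90248192, so its share is not that of the RefSeq exons alone. Over all transcripts, the exons of Slc39a1 were at 55.5 ± 3.63 on the CPM scale at 3M and 57.4 ± 0.942 at 18M (SD, n = 3 each), and those of Slc30a1 were at 56.3 ± 1.06 and 59.5 ± 2.06. In 12 members, words of a read's length (101 bases) in the annotated transcripts also occurred in another gene, most of all Slc39a7 (68.8% shared with Gm20427), Mt2 (22.3% with Gm45774), Slc39a1 (14.7% with its pseudogene Slc39a1-ps) and Slc30a7 (14.4% with Gm6649 and Gm43106), so that levels of these genes carry that uncertainty.

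The remaining large differences between 3M and 18M were smaller than those of Mt3 and Mtf1. Slc39a12 was 2.57, 2.22 and 3.15 CPM at 3M and 3.44, 3.74 and 3.36 at 18M, with no overlap (log2 fold change 0.41, SE 0.150, adjusted p = 0.382). Slc39a4 was 2.98 ± 0.571 and 3.60 ± 0.405 CPM (SD, n = 3 each) and overlapped (log2 fold change 0.28, adjusted p = 0.530). Slc39a14, which carries zinc, iron and manganese, was 10.3, 11.01 and 10.1 CPM at 3M and 9.40, 9.28 and 8.82 at 18M (log2 fold change -0.19, SE 0.0798, adjusted p = 0.418), and Slc39a3 was 54.0 ± 1.88 and 48.2 ± 2.49 CPM (SD, n = 3 each; log2 fold change -0.16, adjusted p = 0.371). None of these differences passed the threshold. Slc39a6 and Slc39a8 had log2 fold changes of -0.11 (SE 0.0449, adjusted p = 0.416) and -0.06 (SE 0.0539, adjusted p = 0.705). Slc30a3, Slc30a4 and Slc30a9 had 0.05 (SE 0.0382, adjusted p = 0.650), -0.11 (SE 0.177, adjusted p = 0.839) and -0.05 (SE 0.0418, adjusted p = 0.625).

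Genes of metal handling outside the families were looked at in lists. None was called in the slope on age or between 3M and 18M by edgeR. Of 10 tested genes listed for zinc handling, such as Tmem163, 4 were higher and 6 lower at 18M (median log2 fold change -0.02). At an unadjusted p of 0.05 or less, 0 were higher and 1, Slc11a2, was lower. Over all genes, 12.0% were at this unadjusted level between 3M and 18M. Of 13 copper genes, 7 were higher and 6 lower (median 0.03; 1 and 2 at the unadjusted level). Sod1 and Sod3 lay on either side of 0 (median 0.01, 0 at the unadjusted level), and of 4 iron genes 1 was higher and 3 lower (median -0.07; 0 and 2 at the unadjusted level).

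The reads of several transporters came from transcripts with ends that differ from the longest annotated form. In 11 of the 31 genes the transcript with the most reads had no RefSeq identifier. For Slc30a3, 93.6% of the FPKM came from transcripts that start at chr5:31108244 (minus strand), far upstream of the start of NM_011773 at chr5:31093527, which held 6.40%. The share of the upstream start was 92.3% ± 1.07 at 3M, 94.4% ± 1.08 in 6M testes, 94.3% ± 1.54 in 12M testes and 93.5% ± 0.434 in 18M testes (SD, n = 3 each), and the ranges of the ages overlapped. RefSeq has a transcript at either start, NM_001347323 upstream with 38.4% of the gene's reads, beside MSTRG.15288.1 with 34.6%. The sequences at both starts are given because the testis signal lies at the upstream one; that one (chr5:31108195-31108494) held 1 match to the element letters, 77 bases before the start, and the other (chr5:31093478-31093777) held none.
Slc30a3 upstream promoter: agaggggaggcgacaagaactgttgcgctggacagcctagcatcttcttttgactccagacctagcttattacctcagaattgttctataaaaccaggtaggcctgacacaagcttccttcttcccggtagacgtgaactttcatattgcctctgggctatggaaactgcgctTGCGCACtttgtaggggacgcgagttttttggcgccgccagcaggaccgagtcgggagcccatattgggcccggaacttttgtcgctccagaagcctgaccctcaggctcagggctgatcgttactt
Slc30a3 downstream promoter: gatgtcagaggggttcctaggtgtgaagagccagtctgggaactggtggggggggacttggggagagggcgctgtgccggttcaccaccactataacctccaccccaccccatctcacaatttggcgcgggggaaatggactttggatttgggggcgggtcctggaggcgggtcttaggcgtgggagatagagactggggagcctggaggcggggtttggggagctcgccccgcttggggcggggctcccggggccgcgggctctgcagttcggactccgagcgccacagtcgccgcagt

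In 5 importers and exporters a large share of the signal came from transcripts that start after every annotated start codon of the gene. Slc39a5 was the extreme case, with 99.4% of its FPKM in MSTRG.2372.1 and MSTRG.2372.2, which have 4 exons and start at chr10:128397047 and chr10:128396964 (minus strand). The RefSeq transcripts of Slc39a5, an importer of pancreas and gut, have 11 or 12 exons, and 2 of them had 0 reads in every library. Slc39a12, known from brain, had 96.7% in MSTRG.10956.2, which starts at chr2:14418706 and holds 8 exons where NM_001012305 holds 13. Slc39a4 had 80.6% in MSTRG.7239.1, with 2 exons where NM_028064 has 12. The shares were 52.1% for Slc39a8, from starts at chr3:135839745 and chr3:135840316, and 33.4% for Slc30a9. For Slc39a5, Slc39a12 and Slc39a4 the levels given above are thus mainly levels of these short transcripts, and the RefSeq forms were at 0.0102, 0.0634 and 0.399 FPKM. The reads do not show whether a protein is made from them.

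**Figure D4:**
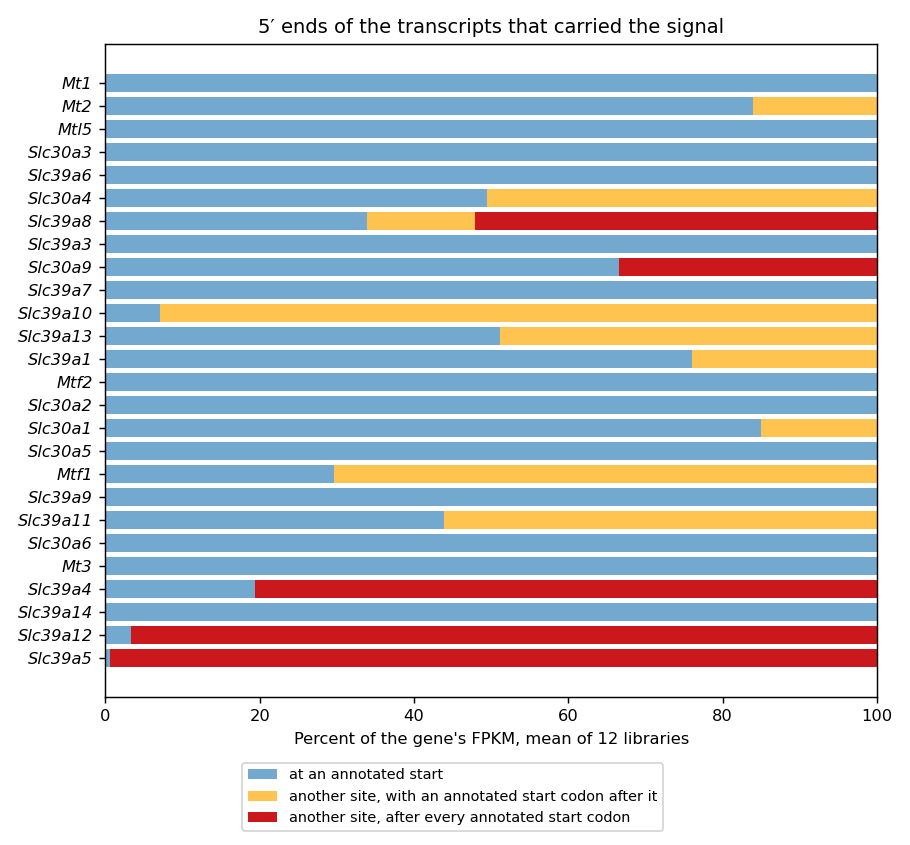
Share of the gene's FPKM (mean of 12 libraries, horizontal axis in percent) by the 5′ end of the transcript, for the 26 genes with a mean of 1 FPKM or more in order of level; blue marks a site within 100 nt of a RefSeq or GENCODE start or one where a RefSeq transcript of the assembly itself begins, yellow another site with an annotated start codon after it, and red a site after every annotated start codon. Red fills 99.4% of Slc39a5, 96.7% of Slc39a12 and 80.6% of Slc39a4, while 13 of the 26 genes are blue throughout.

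Starts upstream of the annotated ones were seen as well. Slc30a4 had 50.5% of its FPKM from 2 assembled transcripts that start at chr2:122704720 and chr2:122704556 (minus strand), upstream of the annotated start at chr2:122702663. Slc39a13 had 33.2% from a start at chr2:91071623 and 15.7% from one at chr2:91125648 (minus strand), both upstream of its RefSeq start at chr2:91070315, and Mt2 had 16.1% from a start at chr8:94172008, upstream of its RefSeq start at chr8:94172618. The share at chr2:91125648 was 62.4% in 18M-1 and 30.6% in 3M-1, and 6.15% to 13.1% in the other libraries. That of the upstream Mt2 start ran from 7.28% to 33.7%. Slc39a10 had 7.09% in its RefSeq transcript and the rest in 6 assembled ones, of which MSTRG.253.3 (20203 nt) took 41.1% of the reads. The assembled ones start between RefSeq starts at chr1:46925776 and chr1:46853618 (minus strand), and not upstream of both.

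Single transcripts were then tested for a change with age. In the slope on age, 91 member transcripts were tested and 0 were called (0.00881% of all transcripts), with 11 (12.1%) at an unadjusted p of 0.05 or less, against 6.99% of all transcripts. Between 3M and 18M, 1 of 89 was called (0.108% of all), with 19 (21.3%) at the unadjusted level, against 5.40% of all transcripts. Transcripts of 1 gene share its reads, so these counts are not of independent members. DESeq2 called 2 in the slope (1.58% of all) and 18 between 3M and 18M (3.16%). In the test of transcript usage, which compares a transcript with the rest of its gene, 0 of 20 members were called in the slope on age (0.7% of all genes tested), and 1, Mtf2, was called between 3M and 18M alone (0.964%). The split of reads between overlapping transcripts is an estimate of the assembler and can vary widely between mice of an age: the share of Slc30a4 placed at its most upstream start ran from 1.21% to 63.2% within 3M.

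The called transcript was NM_001039677 of Slc30a2, which encodes a vesicular exporter that secretes zinc into milk. It had 289, 271 and 249 reads at 3M, 214, 355 and 1837 at 6M, 632, 1462 and 1206 at 12M, and 1181, 1052 and 1470 at 18M. The 18M libraries were all above the 3M ones, while 6M was split, with 6M-3 above every 18M library. The log2 fold change was 2.06 (SE 0.142, adjusted p = 0.0420). The call was lost without any 1 of 3M-1, 3M-3, 18M-1, 18M-2 or 18M-3, with no filter on low counts, with a replicate block and with all 12 libraries in 1 fit. The gene as a whole went the other way and did not pass (log2 fold change -0.14, SE 0.0695, adjusted p = 0.458).

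The assembled transcripts of the same gene with a later 3′ end had the opposite pattern. This split, like that by an exon of Mtf2, was chosen after its values were seen. MSTRG.14663.1 and MSTRG.14663.2 end at chr4:134356369 and chr4:134356368, and NM_001039677 at chr4:134354484. The late-ending pair held 27.6, 27.6 and 28.2 CPM at 3M, 26.7, 21.4 and 6.07 at 6M, 16.04, 5.06 and 3.37 at 12M, and 7.22, 6.57 and 5.44 at 18M. Its share of the gene's reads was 80.2% ± 3.47 at 3M and 20.4% ± 1.97 at 18M (SD, n = 3 each). Neither transcript was called by edgeR (log2 fold changes -2.59 and -1.73, adjusted p = 0.328 and 0.738).

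Mtf2 (chr5:108065674-108109219) also differed between ages in the split among its 15 transcripts. MSTRG.15850.13 and MSTRG.15850.14 were its leading transcripts, with 43.9% and 19.9% of the gene's reads. MSTRG.15850.13 had 2094, 1792 and 1973 reads at 3M and 550, 490 and 864 at 18M (log2 fold change -1.77, SE 0.166, adjusted p = 0.0703), and MSTRG.15850.14 had 879, 1135 and 925 and then 77, 114 and 171 (log2 fold change -3.16, SE 0.279, adjusted p = 0.0608). Both missed the edgeR threshold and were called by DESeq2. At 12M they had 2293, 2072 and 2396 reads and 1229, 790 and 1194 reads, near the values of 3M, while 6M-1 had 411 and 112 reads, near those of 18M. MSTRG.15850.13 holds a short form and MSTRG.15850.14 the full form of the exon that begins at chr5:108080825. Grouped by this exon, the 3 transcripts with its short form of 17 nt held 62.5% ± 6.60 of the gene's reads at 3M, 49.7% ± 24.9 in 6M testes, 64.3% ± 3.61 in 12M testes and 26.0% ± 4.50 in 18M testes (SD, n = 3 each), and the 11 with the full 199 nt held 37.2% ± 6.15 at 3M and 73.2% ± 5.12 at 18M. The 5 transcripts with an internal exon of over 4000 nt held 63.0% ± 4.82 at 3M and 67.5% ± 1.79 at 18M, and these ranges overlapped. MSTRG.15850.13 is also among these 5 and held most of the short-form reads, 39.9 of 40.6 CPM in 3M-1 and 9.70 of 14.6 in 18M-1. The shares by exon form thus include reads of that long exon and do not measure the use of the 17 or 199 nt form. The gene sum was 58.0 ± 3.63 CPM at 3M and 67.8 ± 3.52 at 18M (SD, n = 3 each; log2 fold change 0.23, SE 0.0648, adjusted p = 0.354).

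**Figure D5:**
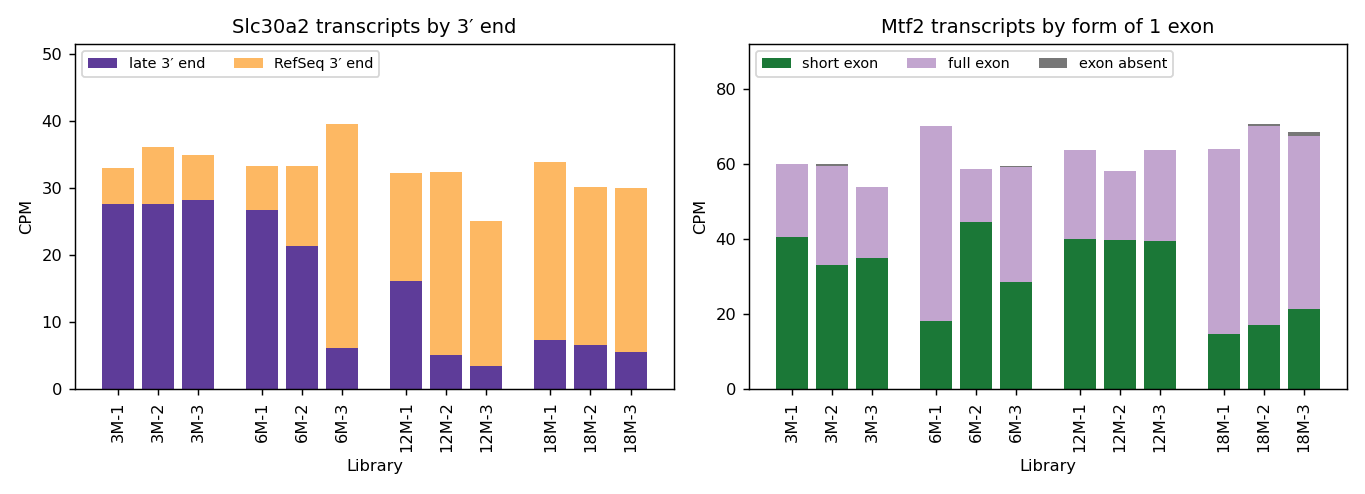
CPM of each of the 12 libraries (bars, stacked by group of transcripts; vertical axes start at 0) for Slc30a2, split by 3′ end, and for Mtf2, split by the form of 1 internal exon (17 or 199 nt). The late 3′ end of Slc30a2 holds 27.6 to 28.2 CPM at 3M and 5.44 to 7.22 CPM at 18M with 6M-3 as low as 18M. The Mtf2 transcripts with the short exon, counted over their whole length, are lowest in the 18M libraries and 6M-1.

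Mtl5 differed little between ages and came almost wholly from 1 transcript. It stood at 82.6, 87.0 and 83.7 FPKM at 3M and 94.9, 85.5 and 81.9 at 18M, and the ages overlapped (log2 fold change 0.05, SE 0.0583, adjusted p = 0.741). NM_001039657 (chr19:3388857-3407823) took 94.2% of its reads. Of 6 CXC domain and MuvB genes beside it, 3 were higher and 3 lower at 18M (median log2 fold change 0.01), and of 10 genes of Polycomb repressive complex 2, which Mtf2 joins, 3 were higher and 7 lower (median -0.04). None of these 16 genes was called by edgeR in the slope or between 3M and 18M. At an unadjusted p of 0.05 or less between 3M and 18M there was 1 higher MuvB gene and 1 lower Polycomb gene. Over all genes the share at that level was 12.0%.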

How the data were processed

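Total RNA of 12 whole testes, 3 mice at each of 4 ages, was depleted of ribosomal RNA and sequenced as paired ends without strand. Per the labels and the study's methods, the authors aligned reads with HISAT2 to mm10 and assembled and quantified transcripts with StringTie (version 1.3.3b in the file headers). The deposited table holds an estimated count per transcript, which StringTie coverage, length and a read length of 101 bases reproduce, and is therefore no direct read count. It also holds FPKM, which the authors scaled per library and length and not between libraries. The deposited assemblies hold the coverage of each exon.

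Members and lists were chosen with earlier results of these data known. Estimated counts were summed per gene and tested with edgeR 4.0.16 (TMM, filterByExpr, quasi-likelihood F-test; R 4.3.3) over all features, with Benjamini-Hochberg adjustment and a call at 0.05 or less: a slope on age over 12 libraries, and 3M against 18M and neighbouring ages within the libraries of each pair. Transcript usage was tested with diffSpliceDGE and Simes' method. The 3 members with the highest and the 3 with the lowest log2 fold change between 3M and 18M were named, beside the family leaders. Alternatives were DESeq2 1.42.0, limma 3.58.1 on log2(FPKM + 1) or log2(FPKM + 0.1), other scalings, filters, transcript classes and fits, a replicate block and leaving out each library. Coverage of a gene's exons by all transcripts was added after seeing the data, with the exons taken from all of the gene's member transcripts, assembled ones included. The fitting code was tested on simulated data. With the spread of these data, edgeR recovered 6% of 1.5-fold and 29% of 2-fold gene changes between 3M and 18M. For the slope on age it recovered 26% and 70%. It recovered 0% of 2-fold or 4-fold transcript changes between 3M and 18M, and 0% of 4-fold changes in usage. Features that were not called can therefore not be taken as unchanged. Starts within 100 nt of each other were joined and compared with RefSeq and GENCODE vM21 starts, and the first base of a RefSeq transcript in the assembly also counted as annotated. Proteins were not used here.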

Additional observations from a re-analysis of the deposited data

Results flagged for a closer look

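A transcript under the symbol Mtf2, MSTRG.15851.1, lies outside the measurements above because it runs against the gene's strand (class code x). It held 1.43 CPM on average, 48 to 124 reads per library, or 2.23% of the reads under that symbol, and stands here as signal in data that no comparison used. Its level was 1.35 ± 0.209 CPM at 3M, 1.48 ± 0.179 in 6M testes, 1.33 ± 0.550 in 12M testes and 1.56 ± 0.131 in 18M testes (SD, n = 3 each), and the reads carry no strand.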

How the results depend on the processing

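The count of members called stayed at 0 in the tests of genes under every alternative run except DESeq2, which called 1 gene (Mt3) in the slope on age and 2 (Mt3 and Mtf1) between 3M and 18M. For single transcripts DESeq2 called 2 members in the slope and 18 between 3M and 18M, where edgeR called 1. That call was lost (0 members) with no filter on low counts, with a replicate block and with all 12 libraries in 1 fit, and leaving out 1 library gave 0 to 1. For transcript usage, 18M against 3M alone gave 1 member (Mtf2), and leaving out 1 library gave 0 to 1, with Mtf2 called without 6M-1. Over all genes DESeq2 called 559 in the slope against 42 with edgeR, and 297 against 16 between 3M and 18M. The named genes kept their sign in every alternative planned. Coverage of the Mtf1 exons by all transcripts, chosen after seeing the data, gave a log2 difference of -0.0623. That measure includes transcripts of other symbols. The replicate numbers did not pair the mice: deviations of same-numbered libraries correlated between -0.06 and 0.06, and 4 of 12 libraries correlated best with their own number. The causes were not tested. Members with few reads, such as Mt4, Slc30a8 and Slc30a10, could not be tested at this depth.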

Other observations

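Mt1 and Mt2 varied together over the 12 mice, with Pearson r = 0.83 (permutation p = 0.0066, adjusted over 4 relations 0.0264) and Spearman rho = 0.62 (permutation p = 0.0352, adjusted 0.141). Without 12M-3 and 6M-1, the libraries farthest from the median of Mt1, r was 0.55, and over deviations from the age means it was 0.92, so that the relation over all mice rests in part on those libraries. The other relations missed the threshold: r was -0.21 and rho -0.23 for Mt1 with Mt3 (permutation p = 0.493 and 0.475), 0.05 and 0.31 for Mt1 with Slc30a1 (permutation p = 0.789 and 0.315), and -0.11 and -0.03 for Mt2 with Slc30a1 (permutation p = 0.770 and 0.927), with adjusted p of 0.629 or more.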
